A study of Capra hircus with 2 samples.

Results

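Transcripts of the myostatin and activin system were examined in longissimus thoracis, a muscle along the back, of Chinese Xuhuai goats (Capra hircus). The 5 genes were chosen by name: the ligands MSTN and INHBA, the antagonist FST and the receptors ACVR2A and ACVR2B, 5 of the 11663 transcript accessions listed in the deposited data. There were 2 RNA sequencing libraries, 1 of fetal muscle taken on gestation day 90 (gestation lasts 150 days) and 1 of muscle of 6-month-old goats, so no difference below has a replicate check and no p-value was computed. The sources used here do not give the number or sex of the animals behind each library, and the sampling text of the older muscle repeats that of the fetal muscle. The deposited files list accessions without gene symbols. The gene names used here are those of cattle RefSeq transcripts, given with the choice of genes and not read from the files.

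Myostatin and the activins are secreted ligands of the TGF-beta family that are made as precursors and act as dimers. Both bind the type II receptors ACVR2A and ACVR2B, which recruit a type I receptor that phosphorylates SMAD2 and SMAD3. Follistatin binds the ligands outside the cell and keeps them from the receptors. In skeletal muscle the pathway is known for limiting growth: animals without functional myostatin have enlarged muscles, and extra follistatin also enlarges muscle.

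The fetal library held 12811117 unique reads over 11393 accessions and the 6-month library 9144138 unique reads over 10850 accessions. Reads of all 5 genes were found in both libraries, with 2776 fetal and 378 6-month reads in all. Levels are given as the authors' RPKM (reads scaled to transcript length in kilobases and to the library's total in units of 1000000 reads). It divides by the whole length, so it compares genes of different length fairly only where reads cover them alike. In the fetal library reads covered 54.8% of MSTN and 98.9% of FST. Some ratios over the covered part are therefore given below. The covered part is each library's own, and for all but ACVR2A it was shorter at 6 months, where fewer reads were counted. Such ratios are thus not a fairer comparison between the libraries. Intervals are exact 95% intervals. They treat each read as a separate molecule, so PCR copies would make them too narrow. They cover counting error only, not uneven coverage of a transcript, and they compare these 2 libraries, not the stages. On RPKM the whole table was shifted toward the fetal library, with a median log2 ratio of 0.58 over the 8201 accessions that reached an RPKM of 1 in both. Values relative to that shift, called centred, are given beside the deposited ones.

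All 5 genes had a higher RPKM in the fetal library, but by very different amounts. The antagonist FST was 16.4-fold higher, and the ligands INHBA and MSTN were 9.16-fold and 6.90-fold higher. The receptors ACVR2A and ACVR2B were 1.46-fold and 1.92-fold higher, and after centring the ACVR2A ratio fell to the other side of 1 while the interval of both receptors held 1. A gene was called higher in a library when log2(RPKM + 1) differed by at least 1, about 2-fold. By this rule FST, INHBA and MSTN (3 of the 5) were called in the fetal direction and 0 in the 6-month direction, and the difference of both receptors stayed below the threshold. Of the 9705 accessions compared, 35.1% were called in the fetal direction and 9.46% in the other. The same 3 were called after centring, where 22.3% of all accessions compared were called in the fetal direction and 17.2% in the other. On the deposited RPKM they also passed a stricter threshold of 2 log2 units, which 10.8% of accessions passed in the fetal direction and 3.49% in the other. MSTN missed that threshold after centring (1.95), and MSTN (1.58) and INHBA (1.59) both missed it with a pseudocount of 5. The median difference of the 5 genes was 2.39 log2 units, against 0.61 over all accessions compared. In bulk muscle, fewer cells of the type that makes a transcript and less of the transcript per cell cannot be told apart.

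**Figure D1:**
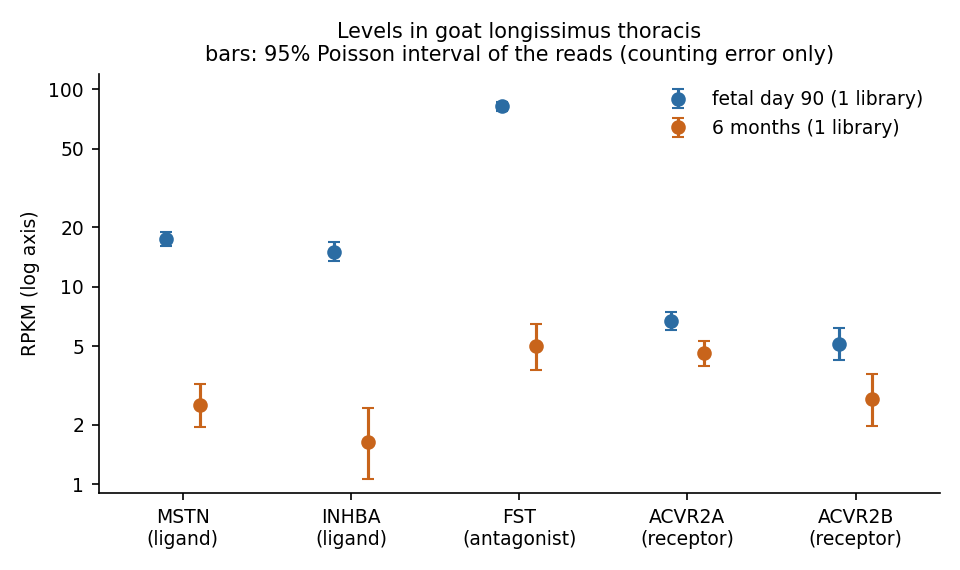
RPKM on a log axis of the 5 genes in the fetal library (blue) and the 6-month library (orange), with exact 95% Poisson intervals of the reads as bars. FST, MSTN and INHBA have widely separated intervals. The intervals of each receptor are closer together but do not overlap either, and the receptor points lie between an RPKM of 2.68 and 6.70.

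MSTN encodes myostatin, a ligand made mainly by muscle fibres. Its transcript of 2767 bases (NM_001001525) had 619 reads in the fetal library, an RPKM of 17.5 (95% interval 16.1 to 18.9). At 6 months it had 64 reads, an RPKM of 2.53 (1.95 to 3.23). Had its share of reads been that of the fetal library, 442 reads would have been counted at 6 months. The intervals do not overlap, and the 6-month level was 14.5% of the fetal one. The ratio of 6.90 had an interval of 5.33 to 9.08, and centred it was 4.62 (3.57 to 6.08). MSTN moved from above 68.2% of the listed accessions in the fetal library to above 35.7% at 6 months.

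INHBA encodes the beta A subunit, of which activin A is a dimer. By RPKM this transcript (NM_174363, 1668 bases) was close to MSTN in the fetal library, with 321 reads and an RPKM of 15.02 (13.4 to 16.8). Over the covered part of each transcript, MSTN was 1.72-fold above INHBA in that library. At 6 months 25 reads were left, an RPKM of 1.64 (1.06 to 2.42), the lowest of the 5 genes in that library. The ratio of 9.16 had an interval of 6.10 to 14.4, wide because of the few 6-month reads, and centred it was 6.14 (4.08 to 9.63). The same subunit also pairs with the inhibin alpha chain, so the transcript by itself does not tell activin A from inhibin A.

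FST encodes follistatin, which binds activins with very high affinity and also binds myostatin. Its transcript (NM_175801, 1273 bases) was the most abundant of the 5 genes in the fetal library, with 1335 reads and an RPKM of 81.9 (77.5 to 86.4). At 6 months it had 58 reads and an RPKM of 4.98 (3.78 to 6.44), where 953 reads would match the fetal share. The 6-month level was thus 6.09% of the fetal one. The ratio was 16.4 (12.6 to 21.8), and 11.0 (8.46 to 14.6) after centring. Of the 9705 accessions compared, 111 (1.14%) had a larger difference in favour of the fetal library, against 480 (4.95%) for INHBA and 632 (6.51%) for MSTN.

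ACVR2A and ACVR2B are the paired type II receptors, transmembrane serine/threonine kinases that bind both ligands. ACVR2A (NM_174227, 4428 bases) had 380 fetal reads and 186 6-month reads, an RPKM of 6.70 (6.04 to 7.41) and 4.59 (3.96 to 5.30). The ratio was 1.46 (1.22 to 1.75) on the deposited scale and 0.98 (0.82 to 1.17) after centring, so its direction depended on the scaling. ACVR2B (NM_174495, 1833 bases) had 121 fetal reads and 45 6-month reads, an RPKM of 5.15 (4.28 to 6.16) and 2.68 (1.96 to 3.59). Its ratio was 1.92 (1.35 to 2.77) on the deposited scale and 1.29 (0.91 to 1.85) after centring. Both receptors lay in the middle of the table: 44.2% of the accessions compared had a smaller difference than ACVR2A and 55.02% a smaller one than ACVR2B. At these depths no difference of either receptor from the general shift was detectable.

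**Figure D2:**
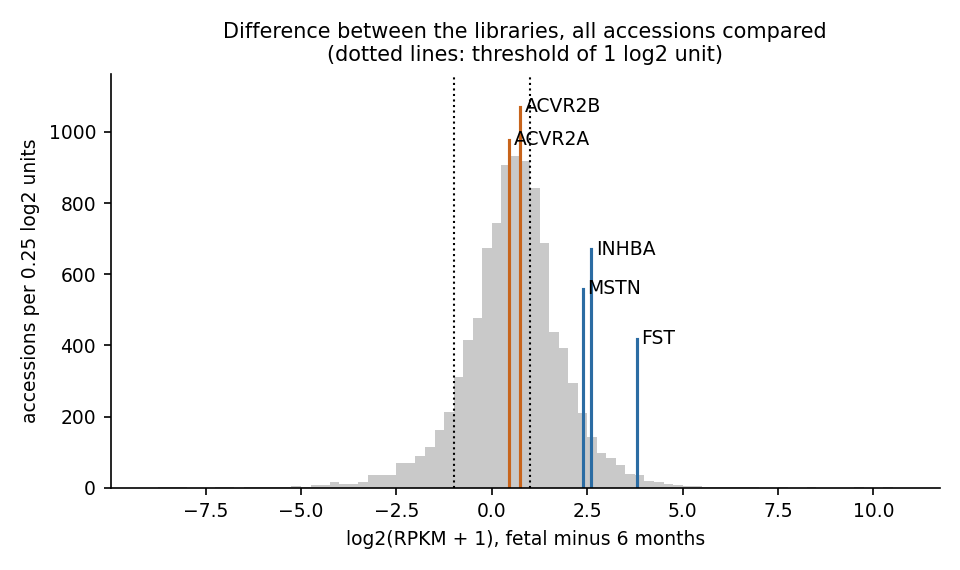
Histogram of the difference in log2(RPKM + 1), fetal minus 6 months, over the 9705 accessions compared, with vertical lines at the 5 genes (blue where called, orange where not; line heights carry no value). ACVR2A (0.46) and ACVR2B (0.74) lie near the peak, MSTN (2.39) and INHBA (2.60) on the right flank and FST (3.79) in the right tail.

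The order of the levels was not the same in both libraries. In the fetal library FST was highest, followed by MSTN, INHBA, ACVR2A and ACVR2B. Each neighbour in that order differed beyond counting error by RPKM. This was only just so for MSTN over INHBA, at 1.16-fold (1.01 to 1.33), and for ACVR2A over ACVR2B, at 1.30-fold (1.06 to 1.61). Over the covered part MSTN was 1.72-fold above INHBA, outside the interval by RPKM. FST exceeded MSTN 4.69-fold (4.26 to 5.16). At 6 months the order was FST, ACVR2A, ACVR2B, MSTN and INHBA. There, FST and ACVR2A (1.08-fold, 0.79 to 1.46), ACVR2B and MSTN (1.06-fold, 0.71 to 1.58) and MSTN and INHBA (1.54-fold, 0.96 to 2.56) did not differ beyond counting error. The highest of the 5 genes was 15.9-fold above the lowest in the fetal library and 3.04-fold at 6 months.

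Ratios of reads between 2 genes of one library do not depend on how the libraries are scaled. The RPKM of MSTN was 0.21 times that of FST in the fetal library (0.19 to 0.23) and 0.51 times at 6 months (0.35 to 0.74), so MSTN was 2.38-fold higher relative to FST at 6 months (1.62 to 3.50). INHBA was 0.18 times FST in the fetal library (0.16 to 0.21) and 0.33 times at 6 months (0.20 to 0.53), a 1.79-fold higher ratio at 6 months whose interval of 1.06 to 2.96 came close to 1. Transcripts of both ligands were thus lower at 6 months, while their ratio to the antagonist transcript was higher. Both ligands remained below FST in each library. With reads taken over the covered part of each transcript in place of its whole length, MSTN was 0.39 times FST in the fetal library and 0.82 times at 6 months.

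Within the ligands and within the receptors, no change of proportion beyond counting error was detected. The ratio of MSTN to INHBA was 1.16 in fetal and 1.54 in 6-month muscle, a fetal over 6-month quotient of 0.75 (0.45 to 1.24). The ratio of ACVR2A to ACVR2B was 1.30 and 1.71, a quotient of 0.76 (0.50 to 1.13). Both intervals hold 1 and allow a change of up to 2.24-fold for the ligands and 1.98-fold for the receptors, so they do not show that the members of a class moved alike.

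Against ACVR2A, both ligands went from above it in the fetal library to below it at 6 months, and FST went from far above it to about its level. MSTN was 2.61-fold above ACVR2A in the fetal library (2.29 to 2.97) and 1.82-fold below it at 6 months (1.36 to 2.45), a 4.73-fold change of the ratio (3.44 to 6.57). Over the covered part MSTN was 3.63-fold above ACVR2A in the fetal library and only 1.17-fold below it at 6 months. INHBA was 2.24-fold above ACVR2A (1.93 to 2.61) and then 2.80-fold below it (1.84 to 4.44), a 6.28-fold change (3.997 to 10.2). FST was 12.2-fold above ACVR2A in the fetal library (10.9 to 13.7) and 1.08-fold at 6 months, an 11.3-fold change (8.14 to 15.7). Against ACVR2B the changes were 3.60-fold for MSTN (2.28 to 5.63), 4.78-fold for INHBA (2.72 to 8.48) and 8.56-fold for FST (5.41 to 13.4). Of the 10 pairs, 8 had an interval of the change that left out 1. The pairs share genes and are not independent.

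**Figure D3:**
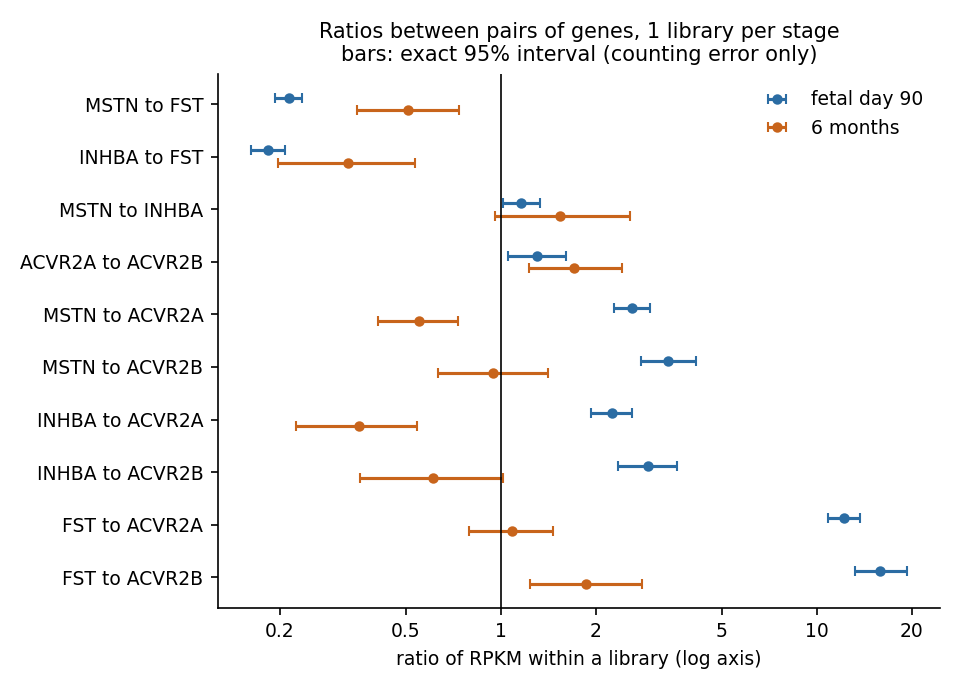
Ratio of RPKM between each pair of genes on a log axis, in the fetal library (blue) and at 6 months (orange), with exact 95% intervals. Both ligands lie below FST in each library, and the ratios of ligands and FST to the receptors lie between 2.24 and 15.9 in the fetal library and between 0.36 and 1.86 at 6 months.

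Summed by role, the ligands reached an RPKM of 32.5 in the fetal library and 4.17 at 6 months, the antagonist 81.9 and 4.98, and the receptors 11.9 and 7.28. The antagonist made up 64.9% of the summed RPKM of the 5 genes in the fetal library and 30.3% at 6 months. The receptors made up 9.39% and 44.3%. The share of the ligands was nearly the same, 25.7% and 25.4%. The FST level was 2.52 times the summed ligands in the fetal library and 1.20 times at 6 months. Over the covered part of each transcript it was 1.64 times the summed ligands in the fetal library but 0.77 times at 6 months. Which was higher at 6 months thus depended on the length used. The covered part was shorter at 6 months for both ligands and FST, so the fetal and 6-month values do not rest on the same lengths. All of these shares and ratios are of transcripts and carry no information on secreted or bound protein.

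How much of each transcript the reads covered differed among the genes. For comparison, accessions with a depth at most 20% above or below that of the gene (read-bases per base of transcript, at 90 bases a read) were taken from the same library. FST was covered to 98.9% in the fetal library, where 361 accessions of like depth had a median of 89.95%, and to 80.8% at 6 months (median 72.1%). ACVR2B was covered to 90.4% (median 75.6%) and 71.0% (median 62.0%). INHBA at 80.8% and 55.2% and ACVR2A at 76.3% and 77.0% lay within the middle 50% of accessions of like depth in both libraries.

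MSTN stood lower. Its coverage was 54.8% in the fetal library, under that of all but 21 of 1041 accessions of like depth (median 85.04%), and 49.8% at 6 months (median 60.7%). The covered stretch came to 1515 bases from 619 fetal reads and to 1377 bases from 64 6-month reads. In the fetal library 1252 of the 2767 bases had no read, although reads amounted to 20.1 bases per base. The RPKM divides by the whole length. Over the covered part alone, MSTN would be at 31.9 in the fetal library and 5.08 at 6 months, against 18.6 and 2.97 for INHBA and 5.70 and 3.78 for ACVR2B. By this measure MSTN was above ACVR2B at 6 months, the reverse of their order by RPKM. With each library's own covered part, the MSTN to INHBA ratio had a quotient of 1.003 between the libraries in place of 0.75. The covered part of INHBA was 1348 bases in the fetal library and 920 at 6 months, where reads were fewer. With 1 length per gene for both libraries the quotient stays at 0.75, so 1.003 is not a corrected value. Where on the MSTN transcript the gap lies, and its part in the level of MSTN, was not tested. The comparison of MSTN between the libraries uses 1 length for both.

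**Figure D4:**
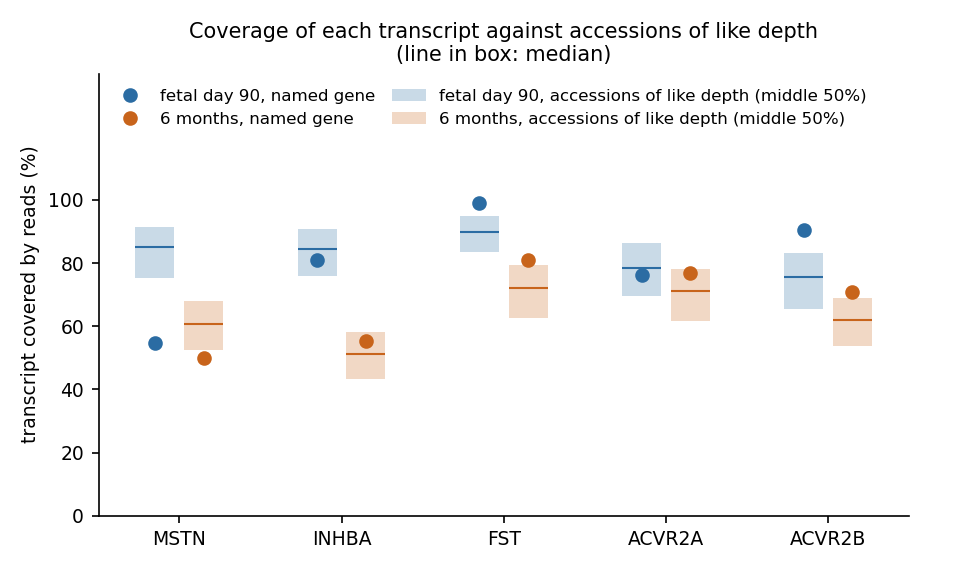
Percentage of each transcript covered by reads (points) in the fetal library (blue) and at 6 months (orange), beside the middle 50% (boxes) and median (lines) of accessions of like depth in the same library. MSTN lies below the box in both libraries, at 54.8% and 49.8%, and FST and ACVR2B lie above it.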

How the data were processed

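The deposited columns are, per the file headers, the authors' count of unique reads per transcript accession, the transcript length in bases, the percent of the transcript covered and the RPKM. Not given in the sources used here: aligner, strand use, genome build, full origin of the transcript set. The transcripts of the 5 genes are cattle RefSeq entries, and 0 of the 11663 listed were found among goat RefSeq transcripts. Whether differences between goat and cattle sequence lowered the reads or coverage of any gene was not tested. They could affect comparisons between genes. The counts summed to the totals in the headers (12811117 fetal and 9144138 6-month reads), and the authors' RPKM was recovered from counts and lengths within 1 part in 1000000. The 5 genes, all of which are named, and the comparisons were chosen with earlier results of these data known.

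From the deposited values, log2(RPKM + 1) of the fetal minus the 6-month library was computed for accessions reaching an RPKM of 1 in either library. The pseudocount of 1 understates differences of low transcripts. Ratios of read shares had exact conditional binomial (Clopper-Pearson) 95% intervals, single levels exact Poisson intervals, and changes of pair ratios exact conditional odds ratio intervals. Of the 10 pairs, those with a receptor and a ligand or FST, the sums by role and the levels and ratios over the covered part were added after the data were seen. Centring multiplied the 6-month RPKM by the median ratio. Calls and intervals were run on simulated counts with Poisson error only, drawn around the mean profile of these 2 libraries. Such counts hold no PCR copies and no differences between animals, so the run checks the computation only. Alternatives covered pseudocount, minimum, threshold and 4 scalings. Planned lists of 43 pathway genes and 32 cell type markers could not be used, since 0 of the 11663 accessions were found in the goat RefSeq table (ARS1.2), so the labelled tissue was not checked against markers. That table lists all 5 gene symbols. No sequence was used here. Software was SciPy 1.17.1, NumPy 2.4.6 and pandas 2.3.3 under Python 3.11.15, with plots by matplotlib 3.10.9.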

Additional observations from a re-analysis of the deposited data

How the results depend on the processing

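No paired analysis was possible because each stage has 1 library, and for the same reason none could be left out in turn. Depth limits only the counting error. The calls were the same under all 9 alternatives run for them: 3 genes were called in the fetal direction and 0 in the other. Removing the minimum RPKM or raising it to 5 could not alter these calls. All 5 genes were above that level in the fetal library (lowest 5.15, ACVR2B). Of 56 alternative values for differences, calls and changes of pair ratios, 47 stayed within the counting interval of the value reported, or were the same count. With a pseudocount of 5 the difference was 1.58 log2 units for MSTN, 1.59 for INHBA and 3.12 for FST. Centring on the median ratio gave 1.95 for MSTN, 3.30 for FST and -0.030 for ACVR2A, and centring on the trimmed mean ratio gave 1.95, 3.29 and -0.032. The direction of ACVR2A, which was not called, thus changed with both centrings. These settings move the values by construction, as they damp low values or remove the shift of the whole table. The changes of the 4 planned pair ratios stayed within their intervals with a pseudocount and over the covered part. The covered part differed between the libraries, and with 1 length per gene the length cancels from a change. The covered-part values are therefore no check of these changes, although they count among the 56. Levels and ratios within a library over the covered part were not among the 56 values. The levels of MSTN, INHBA and ACVR2A left their counting intervals in both libraries, and that of ACVR2B in the older muscle. The other levels did not. The ratios MSTN to FST and MSTN to ACVR2A left theirs in both libraries. INHBA to FST, MSTN to INHBA, MSTN to ACVR2B and FST to ACVR2A did so in the fetal library only. The other ratios stayed within.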
